A study of Mus musculus with 9 samples.

Results

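Messenger RNA of the major histocompatibility complex (MHC) class II genes and of the genes that load them with peptide was examined in 3 groups of mouse activated hepatic stellate cells (aHSCs), the scar-forming cells of the injured liver. The set comprised 8 genes, H2-Aa, H2-Ab1, H2-Eb1, H2-DMa, H2-DMb1, H2-DMb2, Cd74 and Ciita. They were found by gene symbol in the array annotation and were represented by 14 of its 45281 gene probes, and all 14 passed the filter on dim probes. The members were selected on measured values, namely the differences in level between cells from liver and cells from culture in earlier results of these arrays, so their comparisons with the cultured cells are given here as descriptions without p-values. H2-Aa and Ciita passed that filter through the liver arrays alone.

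Each of the 9 samples was hybridised to 1 Illumina MouseWG-6 v2.0 bead array, with 3 arrays per group. The labels give every mouse as a male of the C57/Bl6 strain with the WT1GFP/+ genotype, in which green fluorescent protein (GFP) replaces 1 allele of WT1, the Wilms tumour transcription factor, so that GFP stood for WT1 and every group retained a single intact allele. WT1-high and WT1-intermediate aHSCs were the GFP high and GFP low cells sorted directly from livers fibrosed by repeated intraperitoneal carbon tetrachloride, and the study states that these 6 arrays came from 3 animals. WT1-negative aHSCs were GFP negative cells of uninjured mice, isolated as quiescent cells and activated on plastic for 7 days before sorting. Replicates bear the numbers of the labels, which are 1, 8 and 29 for WT1-high, 1, 8 and 30 for WT1-intermediate, and 3, 11 and 14 for WT1-negative. Cells were enriched by density centrifugation and sorted on GFP alone, with no step stated that removed leukocytes. WT1 status, origin from liver or dish and the table in which the arrays were deposited coincided between WT1-negative and the other groups, and cannot be told apart. Per the study's methods, replicates were separate animals in vivo and separate cell isolations in vitro.

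MHC class II molecules are surface proteins that display peptides from endosomes to CD4+ T cells, and they are best known from dendritic cells, B cells and macrophages. An alpha and a beta chain assemble with the invariant chain, encoded by Cd74, which guards the peptide groove until the H2-DM heterodimer exchanges its remnant for an antigenic peptide. Transcription of the class II genes depends on CIITA, a coactivator induced by interferon gamma that does not bind DNA itself and acts through factors seated on the X and Y boxes of their promoters. Hepatic stellate cells have been reported to carry class II molecules when inflamed.

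The members separated into those that differed between liver and culture and those that differed little. The promoter sequences available for the set are shown first, because H2 genes of both kinds lie in 1 gene cluster on chromosome 17. Cd74 and Ciita lie outside that cluster. RefSeq promoter windows (GRCm38.p6, from 250 bases before to 50 bases after each transcript start) were at hand for 5 of the 8 members, and for H2-Oa and H2-Ob, which encode the H2-O heterodimer that restrains H2-DM. A pair of short motifs was searched on both strands, the Y box core GATTGG and the X box letters GCAAC. Below, 56 bases around the Y box core are printed on the coding strand of each gene, with GATTGG in capitals and GCAAC in capitals where it stood 20 to 40 bases before it.
H2-Aa: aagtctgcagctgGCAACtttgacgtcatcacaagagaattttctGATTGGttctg
H2-Eb1: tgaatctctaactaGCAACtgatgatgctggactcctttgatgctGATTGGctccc
H2-Oa: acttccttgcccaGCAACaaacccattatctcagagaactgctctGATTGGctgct
H2-Ob: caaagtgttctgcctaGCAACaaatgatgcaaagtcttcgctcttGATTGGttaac
H2-DMb1: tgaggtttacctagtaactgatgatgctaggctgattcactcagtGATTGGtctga
H2-DMb2: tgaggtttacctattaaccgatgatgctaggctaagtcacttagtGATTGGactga

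These windows lie at chr17:34287862-34287917 on the minus strand for H2-Aa, and on the plus strand at chr17:34305762-34305817 for H2-Eb1, chr17:34092290-34092345 for H2-Oa, chr17:34238802-34238857 for H2-Ob, chr17:34153084-34153139 for H2-DMb1 and chr17:34145113-34145168 for H2-DMb2. H2-Aa, H2-Eb1, H2-Oa and H2-Ob held GCAAC followed by GATTGG, with 32, 31, 32 and 29 bases from the start of one to the start of the other. H2-DMb1 and H2-DMb2 held GATTGG but not GCAAC, and their printed windows resemble each other closely. At a like distance before GATTGG, H2-DMb1 has the near match gtaac and H2-DMb2 has ttaac. The search took exact letters only, so it did not count these. H2-DMa had 2 annotated starts, of which the upstream one had no GATTGG and the other had it at -199, without GCAAC before it. Among all 32851 promoter windows of the same length, 16.1% held GATTGG on either strand, 35.2% held GCAAC, and 0.365% held GCAAC 20 to 40 bases before GATTGG on 1 strand. The motifs do not overlap each other in these windows. A match of letters describes the window only, and the absence of GCAAC says nothing of whether a factor binds there.

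**Figure D1:**
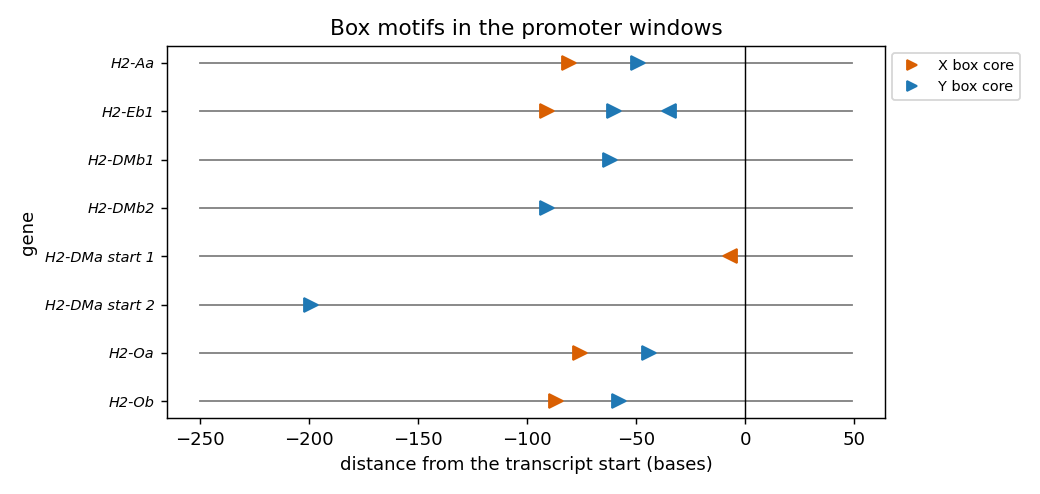
Positions of the X box letters GCAAC (orange) and the Y box core GATTGG (blue) in the 300-base promoter windows, as distance in bases from the transcript start; right-pointing marks lie on the coding strand and left-pointing marks on the other. H2-Aa, H2-Eb1, H2-Oa and H2-Ob hold both in that order, whereas the H2-DM genes hold no GCAAC before GATTGG.

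The classical chains were bright on every array from fibrotic liver and dim on every array from culture. H2-Aa, the alpha chain of I-A, gave raw intensities of 2006, 3524 and 2212 on the WT1-high arrays and 2113, 2604 and 1040 on the WT1-intermediate arrays. On the WT1-negative arrays it gave 92.3, 89.4 and 96.9, where the median negative control probe gave 92.8, 91.6 and 93.6. Its probe was thus not detected in cultured cells, detection meaning a deposited p-value under 0.05 against the array's own negative controls.

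Further levels are log2 values after background correction and quantile normalisation, on which a difference of 1 is a doubling and a level near 4.5 is the limit of detection. H2-Aa stood at 10.89, 11.28 and 10.97 in WT1-high, at 11.44, 11.40 and 10.97 in WT1-intermediate, and at 4.25, 4.21 and 4.35 in WT1-negative. Measured against the detection limit of the WT1-negative arrays, the excess of H2-Aa after background correction was at least 87.1-fold for WT1-high aHSCs, and for WT1-intermediate aHSCs it was at least 101-fold. The liver groups overlapped each other and lay far above the cultured group.

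H2-Ab1, the partner beta chain of I-A, was read by 3 probes. The brightest gave 11.71, 11.92 and 11.52 in WT1-high, 11.86, 12.22 and 11.67 in WT1-intermediate, and 6.12, 6.27 and 6.04 in WT1-negative aHSCs. Unlike H2-Aa, H2-Ab1 was detected on all 3 cultured arrays, though 47.6-fold below WT1-high and 54.6-fold below WT1-intermediate. The other 2 H2-Ab1 probes gave differences from WT1-negative of 5.25 and 4.65 for WT1-high and of 5.39 and 5.02 for WT1-intermediate on the log2 scale.

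H2-Eb1, the beta chain of I-E, stood at 10.88, 10.98 and 10.71 in WT1-high, at 10.75, 11.21 and 10.66 in WT1-intermediate, and at 4.55, 4.55 and 4.83 in WT1-negative aHSCs. Of the cultured arrays, replicate 14 alone had H2-Eb1 above the detection threshold. The differences from WT1-negative were 6.21 ± 0.18 for WT1-high and 6.23 ± 0.18 for WT1-intermediate (log2, SE, 3 arrays per group). H2-Ea, the I-E alpha chain, whose gene is inactive in the C57BL/6 strain, was detected on 1 of 9 arrays (WT1-intermediate replicate 1, level 4.51) and was not tested.

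Cd74, the invariant chain that escorts the class II chains, was read by 3 probes. The brightest gave 12.15, 12.60 and 12.22 in WT1-high, 11.55, 12.61 and 11.70 in WT1-intermediate, and 5.71, 5.96 and 6.23 in WT1-negative aHSCs. Relative to the cultured cells, Cd74 was 81.8-fold higher in WT1-high aHSCs, and the corresponding value for WT1-intermediate aHSCs was 63.5-fold. A dimmer Cd74 probe was detected on no cultured array and was at least 22.3-fold and at least 22.5-fold higher, while the remaining probe differed by 6.14 and 5.95 on the log2 scale.

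The size of these ratios depended on the background correction, which lowers dim signals most. Without it, the log2 differences from WT1-negative for WT1-high and WT1-intermediate were 4.42 and 4.63 for H2-Aa, 4.45 and 4.64 for H2-Ab1, 4.12 and 4.13 for H2-Eb1, and 5.12 and 4.76 for Cd74. The folds given above, those written as at least included, hold for background-corrected values only.

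**Figure D2:**
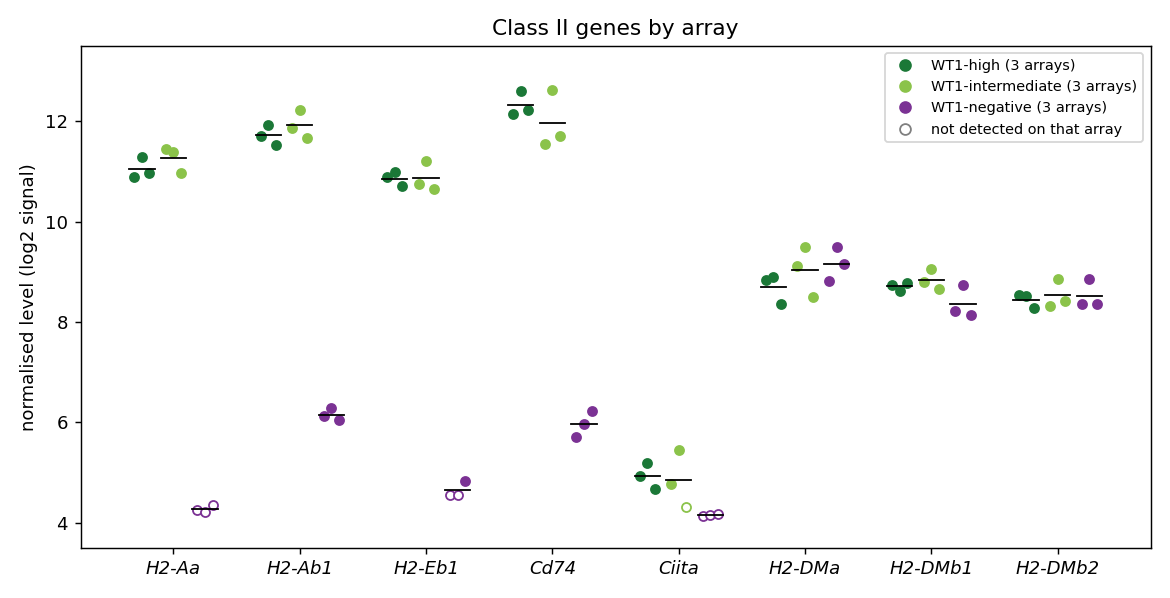
Level of each class II gene (log2 normalised signal, brightest probe) on each array, with arrays in order of replicate number, group means as black bars and open circles where the probe was not detected. H2-Aa, H2-Ab1, H2-Eb1 and Cd74 lie between 10.66 and 12.61 on the 6 arrays from liver and between 4.21 and 6.27 on the 3 from culture, whereas the 3 H2-DM genes lie between 8.13 and 9.49 in all groups.

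The genes for the peptide exchanger did not share this contrast. H2-DMa, its alpha chain, stood at 8.83, 8.90 and 8.35 in WT1-high, at 9.11, 9.48 and 8.50 in WT1-intermediate, and at 8.81, 9.49 and 9.14 in WT1-negative aHSCs. The 3 groups overlapped, and the differences from WT1-negative were -0.45 ± 0.26 for WT1-high and -0.12 ± 0.26 for WT1-intermediate (log2, SE), with 95% intervals of -1.03 to 0.13 and -0.69 to 0.46. The second H2-DMa probe gave -0.55 and -0.13, and on it the WT1-high and WT1-negative arrays did not overlap. The 95% interval of its WT1-high difference was -1.05 to -0.06.

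H2-DMb1 and H2-DMb2 encode near-identical beta chains, so their probes may read each other's transcript and the values of each are uncertain. H2-DMb1 stood at 8.74, 8.62 and 8.78 in WT1-high, at 8.79, 9.06 and 8.66 in WT1-intermediate, and at 8.22, 8.74 and 8.13 in WT1-negative aHSCs. Replicate 11 of the WT1-negative group lay within the range of the liver arrays, and the differences from WT1-negative were 0.35 ± 0.19 and 0.47 ± 0.19 (log2, SE).

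The brighter H2-DMb2 probe gave 8.53, 8.51 and 8.27 in WT1-high, 8.32, 8.85 and 8.43 in WT1-intermediate, and 8.35, 8.85 and 8.35 in WT1-negative aHSCs, with differences from WT1-negative of -0.08 and 0.02. The groups could not be separated by this probe, with 95% intervals of -0.51 to 0.34 and -0.41 to 0.44. A second H2-DMb2 probe, near the detection limit, differed by 0.61 and 0.66 and was detected on 1 of 3 cultured arrays.

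Ciita, the coactivator on which class II transcription depends, was barely above background wherever it was seen. It stood at 4.92, 5.18 and 4.67 in WT1-high, at 4.76, 5.44 and 4.31 in WT1-intermediate, and at 4.13, 4.15 and 4.17 in WT1-negative aHSCs. Its probe was detected on 3 WT1-high arrays, on 2 WT1-intermediate arrays (all but replicate 30) and on no WT1-negative array. Against the detection limit of the cultured arrays the excess of Ciita was at least 1.25-fold for WT1-high aHSCs, while for WT1-intermediate aHSCs it was at least 1.18-fold, and a larger change cannot be read from so dim a probe.

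By limma with Benjamini-Hochberg adjustment over all probes, at an adjusted p under 0.05, 5 of the 8 members were called higher, and none lower, in WT1-high aHSCs when set against WT1-negative aHSCs, where 59.6% of all tested probes passed (26.5% higher and 33.1% lower). In WT1-intermediate 6 of 8 were higher and none lower, where 58.0% of all probes passed (24.4% higher and 33.6% lower). The sixth was H2-DMb1, which lost its call under 11 of 19 other analyses, in 1 of which, scaling of arrays to a common median, it turned to -0.26. The groups did not overlap for 5 of the 8 in either comparison, beside 68.4% and 65.5% of all probes. Nothing is read from these counts, since the members were chosen with these comparisons known. The median over the 8 was 3.17 and 3.23 (log2), against -0.10 and -0.13 over all tested probes, but no member lay near that median, since 4 differed by over 5.5 and 4 by less than 0.8. In these bulk samples fewer cells that carry class II transcripts and less transcript per cell cannot be told apart.

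**Figure D3:**
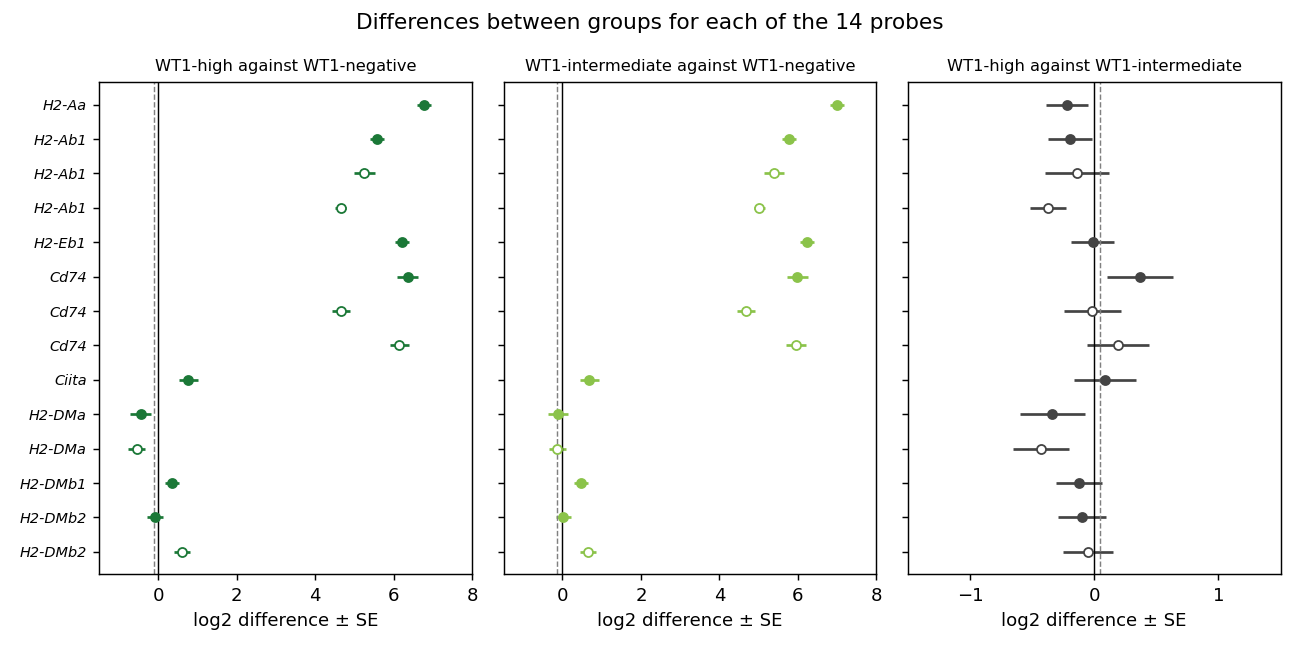
Difference in log2 level with its SE for each of the 14 probes in the 3 comparisons; filled circles mark the brightest probe of a gene, the solid line is 0 and the dashed line is the median of all tested probes. All 8 probes of H2-Aa, H2-Ab1, H2-Eb1 and Cd74 differ from WT1-negative by 4.65 or more, those of the H2-DM genes by 0.66 or less, and the right panel, drawn on a narrower axis, spans -0.42 to 0.37.

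Between WT1-high and WT1-intermediate aHSCs, which the choice of members did not rest on, limma called 0 of the 8 genes, and 0 had an unadjusted p under 0.05, beside 3.55% of all probes called (0.904% higher and 2.64% lower, with 17.2% at an unadjusted p under 0.05). No member's brightest probe separated the groups, where 20.1% of all probes did. Their median difference was -0.11 (log2), against 0.05 over all tested probes. Cd74 differed most upwards, by 0.37 ± 0.26 (SE; 95% interval -0.22 to 0.95, adjusted p = 0.53), and H2-DMa most downwards, by -0.34 ± 0.26 (95% interval -0.91 to 0.24, adjusted p = 0.56). For H2-Aa the difference was -0.22 (95% interval -0.60 to 0.16), for H2-Ab1 -0.20 (-0.59 to 0.19) and for H2-Eb1 -0.01 (-0.40 to 0.37). The intervals leave room for differences of that size, and a missed threshold does not show equal expression.

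Of the 14 probes, 1 separated the liver groups. This H2-Ab1 probe, the dimmest of the 3 for its gene, stood at 10.29, 10.33 and 10.10 in WT1-high and at 10.52, 10.75 and 10.56 in WT1-intermediate, a difference of -0.37 ± 0.14 (SE; 95% interval -0.69 to -0.06). Its unadjusted p was 0.02 and its adjusted p 0.20 by limma, so it was not called. The other H2-Ab1 probes overlapped between the groups.

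Same-numbered liver arrays were also set side by side, with WT1-high 29 matched to WT1-intermediate 30 as in the deposited column names. In the pair numbered 8 all 8 members were lower in WT1-high, in pair 1 it was 4 of 8, and in the pair of 29 and 30 it was 3 of 8. H2-Ab1 (-0.15, -0.30 and -0.15) and H2-DMa (-0.28, -0.58 and -0.15) were lower in WT1-high in 3 of 3 pairs, and no other member kept 1 direction through the pairs. WT1-intermediate replicate 8 had the highest level of the 6 liver arrays for 7 of the 8 genes, all but H2-Aa. Without that array the median difference between the liver groups moved from -0.11 to 0.03. The directions within pairs are those after quantile normalisation. With median scaling the group differences of all 8 members were positive, as was the median of all probes (0.45).

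The remaining class II genes on the array were few and dim. H2-Oa stood at 6.50, 6.42 and 6.14 in WT1-high, at 6.24, 6.63 and 6.38 in WT1-intermediate, and below detection in WT1-negative aHSCs (at least 3.37-fold and at least 3.51-fold higher). H2-Ob and H2-Eb2, an I-E beta relative, were likewise detected on all 6 liver arrays and on no cultured array, at levels of 4.58 to 5.44. These 3 genes passed the filter on dim probes through the liver arrays alone, so no count of calls against WT1-negative is given for them. Between WT1-high and WT1-intermediate limma called 0 of the 3, and 0 had an unadjusted p under 0.05.

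Regulators upstream of Ciita were mixed. Of 8 genes on the interferon gamma route, 4 were called higher in WT1-high than in WT1-negative and none lower, beside 26.5% of all probes called higher, and 5 were higher in WT1-intermediate, beside 24.4%. With median scaling the WT1-intermediate count was 3 higher and 1 lower, the last being Ifngr1. Ifng, the cytokine itself, stood at 6.38, 5.63 and 5.46 in WT1-high, at 5.99, 6.08 and 5.78 in WT1-intermediate and below detection on all cultured arrays (at least 2.32-fold and at least 2.54-fold higher). Ifng thus passed the filter on dim probes through the liver arrays alone, and nothing is read from the counts above. Jak1, a kinase of its receptor, rose by 2.80 ± 0.19 and 3.08 ± 0.19 (log2, SE), and Irf1, an interferon-induced factor that activates Ciita, by 1.56 ± 0.20 and 1.43 ± 0.20. The receptor chain Ifngr1 differed by -0.45 and -0.29, neither of them called with quantile normalisation.

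Between the liver groups the sole gene of this route called was Ifngr2, the second receptor chain, at 7.94, 7.15 and 7.20 in WT1-high and 9.32, 8.55 and 8.80 in WT1-intermediate. It was lower in WT1-high by 1.46 on the log2 scale (log2 difference -1.46, limma adjusted p = 0.0086), and the call was lost when arrays were scaled to a common median (-0.75, adjusted p = 0.098). The other 2 Ifngr2 probes both differed by -0.08 and were not called, so the probes of this gene disagree. With median scaling the kinase Jak2 was called instead, higher in WT1-high by 1.11 (adjusted p = 0.036).

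Among 7 factors of the X and Y boxes, Rfx5 and Rfxank were detected on WT1-high replicates 1 and 8 alone, too few arrays to be tested. Rfxap differed by 0.02 at most between any groups. Nfya and Nfyb, subunits of the Y box factor NF-Y, differed from WT1-negative by -0.66 and -0.47 in WT1-high aHSCs, while in WT1-intermediate aHSCs the differences were -0.79 and -0.59, opposite in sign to those of the classical class II genes. With median scaling 0 of the 5 tested were called in WT1-high against WT1-negative. In WT1-intermediate the same scaling called 3 of the 5 lower, where 10966 of 20573 probes were called in either direction. Quantile normalisation called 2 of the 5 lower there, beside 33.6% of all probes. The third subunit, Nfyc, differed by 0.30 and 0.19 and was not called, and no factor was called between the liver groups.

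The proteases and reductase that prepare peptides in endosomes differed in both directions. Cathepsin S (Ctss), which trims the invariant chain, stood at 8.49, 8.91 and 8.10 in WT1-high, at 10.70, 9.97 and 10.05 in WT1-intermediate and at 7.77, 6.32 and 7.58 in WT1-negative aHSCs. Against WT1-negative aHSCs it rose by 1.28 ± 0.36 in WT1-high aHSCs, and the rise in WT1-intermediate aHSCs was 3.02 ± 0.36 (log2, SE). Ifi30, the lysosomal thiol reductase, ran the other way, at 8.45, 8.78 and 8.39, then 9.79, 9.73 and 9.18, then 10.54, 10.76 and 11.08.

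In this list of 6 genes, 1 was called higher and 4 lower in WT1-high than in WT1-negative, where 33.1% of all probes were called lower, and 1 higher and 3 lower in WT1-intermediate, where 33.6% were. Cathepsin L (Ctsl) fell most, with differences of -2.34 and -2.35, and legumain (Lgmn), an asparagine-specific protease, with -2.26 and -1.72. Between the liver groups 3 of the 6 were called lower in WT1-high, where 2.64% of all probes were, namely Ctss (-1.74, adjusted p = 0.024), Ifi30 (-1.03, adjusted p = 0.022) and cathepsin D, Ctsd (-0.97, adjusted p = 0.0078). With arrays scaled to a common median, which moved the median of all probes by 0.40, the differences were -1.08, -0.35 and -0.36 and 0 of the 6 were called.

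Of 5 genes for class II turnover and for proteins that bind the invariant chain, 0 were called between the liver groups by limma, with 1 at an unadjusted p under 0.05. Mif, a cytokine ligand of the invariant chain, differed from WT1-negative by -1.49 in WT1-high aHSCs, and the difference for WT1-intermediate aHSCs was -1.05. The largest positive difference of this list was that of Cxcr2 in WT1-high (0.55) and of Cxcr4 in WT1-intermediate (0.60), both chemokine receptors, and neither was called.

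Cd86 and Cd40, costimulators that accompany class II on antigen-presenting cells, were lowest in WT1-high aHSCs. Cd86 stood at 6.93, 6.61 and 6.53 in WT1-high, at 8.42, 8.22 and 7.91 in WT1-intermediate and at 7.96, 8.17 and 8.12 in WT1-negative. Cd40 stood at 5.80, 5.86 and 5.57, at 7.59, 6.87 and 6.35, and at 9.03, 8.30 and 8.63 in the same order. On these probes WT1-high lay below both other groups on every array.

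Of 7 costimulatory or coinhibitory genes tested, 5 were called lower in WT1-high than in WT1-negative and none higher, beside 33.1% of all probes called lower, and 4 were called lower than in WT1-intermediate, beside 2.64%. The latter were Cd86 (-1.49, adjusted p = 0.0010), Cd40 (-1.20, adjusted p = 0.043), the inhibitory ligand Cd274 (-0.82, adjusted p = 0.017) and the T cell ligand Tnfsf9 (-0.77, adjusted p = 0.012). Cd80 differed by -0.80 (adjusted p = 0.10) and was not called. Under median scaling the 7 differences stayed negative, with a median of -0.39, and 0 of 7 were called. Against WT1-negative, WT1-intermediate had 2 called lower and 1 higher, beside 33.6% and 24.4% of all probes. The 1 called higher was Pdcd1lg2 (0.44), another coinhibitory ligand.

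**Figure D4:**
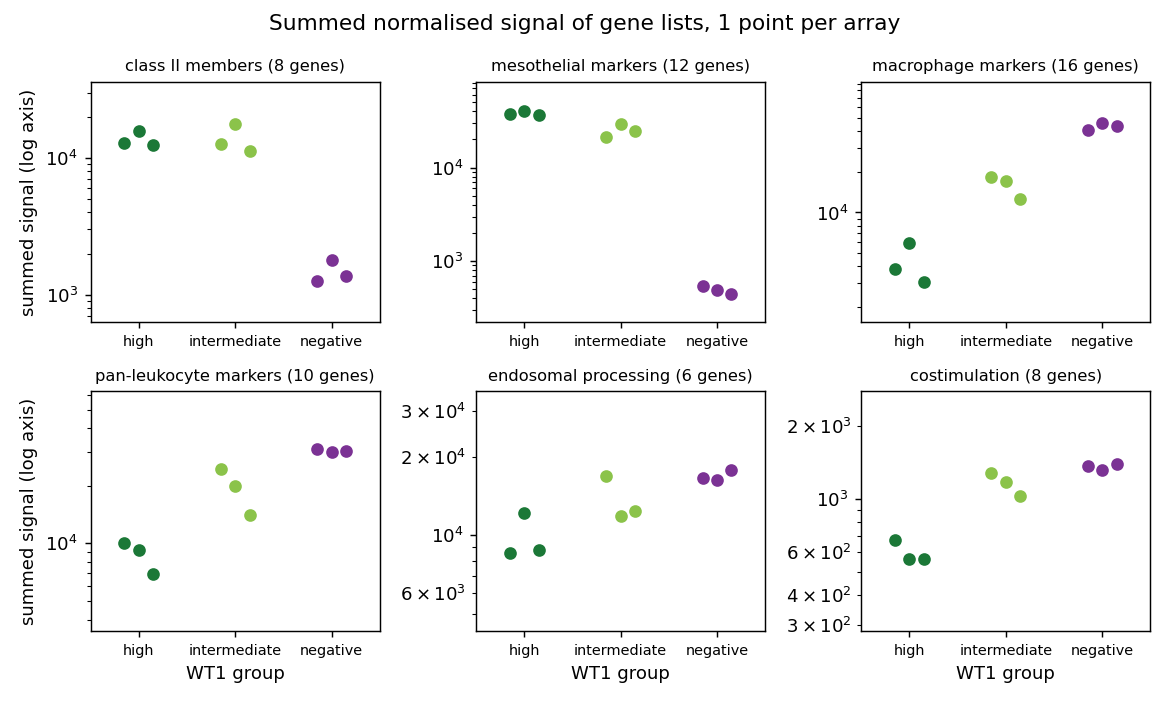
Summed normalised signal (linear units, log axis with a range of its own in each panel) of 6 gene lists, 1 point per array and 1 probe per gene. The class II members total 11332 to 17855 on liver arrays and 1255 to 1806 in culture, while the sums of macrophage and of pan-leukocyte markers are highest in culture and lowest in WT1-high.

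Markers of other cells that carry class II were read alongside. Of 16 macrophage markers the summed signal was 3074 to 5896 in WT1-high, 12514 to 18430 in WT1-intermediate and 41008 to 45926 in WT1-negative arrays. Gene by gene, 1 of the 15 tested was called higher and 11 lower in WT1-high than in WT1-negative, beside 26.5% and 33.1% of all probes. In WT1-intermediate 4 were called higher and 6 lower, beside 24.4% and 33.6%, so these counts lie near the shares over all probes. The markers called higher in WT1-intermediate were Clec4f, Timd4, Marco and Vsig4, genes known from resident macrophages of the liver. The 1 called higher in WT1-high was Clec4f. C1qa, a complement chain of tissue macrophages, stood at 6.14, 6.54 and 6.35, at 9.22, 9.17 and 9.14, and at 11.63, 12.00 and 11.70. Emr1, which encodes a surface receptor of macrophages, stood at 7.53, 8.16 and 7.74, at 10.41, 9.54 and 9.90, and at 9.93, 9.13 and 9.76.

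Between the liver groups all 15 differences were negative and 10 of 15 markers were called lower in WT1-high, beside 2.64% of all probes. With median scaling 6 of the 15 were called lower, where 2631 of 20573 probes were called in either direction. Csf1r, the macrophage growth factor receptor, differed by -1.41, and the Kupffer cell lectin Clec4f by -1.34 (adjusted p = 0.059, not called). Clec4f was undetected in culture and so passed the filter on dim probes through the liver arrays alone. On each cultured array 13 of the 16 macrophage markers were detected. Cd5l was detected on 0 of 9 arrays. The 10 pan-leukocyte markers summed to 6935 to 10048, 14038 to 24481 and 29958 to 31171. Of the 10, 1 was called higher and 7 lower in WT1-high than in WT1-negative, beside 26.5% and 33.1% of all probes. In WT1-intermediate 3 were called higher and 4 lower, beside 24.4% and 33.6%. Among them Fcer1g fell most, by -3.30 and -1.75, while the largest rises were 1.46 and 2.26. Ptprc, the common leukocyte antigen CD45, was detected on all 6 liver arrays (5.59 to 6.99) and on no cultured array. It thus passed the filter on dim probes through the liver arrays alone.

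The summed signal of 10 dendritic cell markers was 786 to 1061 in WT1-high, 956 to 1595 in WT1-intermediate and 399 to 465 in WT1-negative. Most of the excess on liver arrays was Siglech, a lectin of plasmacytoid dendritic cells, at 8.94, 7.97 and 8.22, then 9.59, 8.33 and 8.81, and undetected in culture (at least 13.7-fold and at least 19.8-fold higher). The defining genes Flt3 and Xcr1 were detected on 0 of 9 arrays, Clec9a on 1 and Cd209a on 2, and Itgax on 4 liver arrays at up to 4.90. Batf3 was lower than in WT1-negative by -1.28 and -0.89. Of the 6 tested, the 5 others were higher than in WT1-negative in both comparisons. In each comparison 3 were called higher, beside 26.5% and 24.4% of all probes, and 1 lower, beside 33.1% and 33.6%. On the cultured arrays 2 to 3 of the 10 were detected. Siglech, for 1, passed the filter on dim probes through the liver arrays alone, so nothing is read from these counts.

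Of 8 B cell markers the sums were 305 to 381, 331 to 397 and 162 to 171. Ms4a1, which encodes CD20, and Cr2 were detected on no array and Pax5 on 1, whereas Ly6d stood at 6.56 to 7.42 on liver arrays and was undetected in culture. All 5 tested were higher than in WT1-negative in both comparisons. On each cultured array 1 of the 8 was detected, so no count of calls is given for them. The part of leukocytes in the class II difference was not tested.

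Mesothelial markers, known from the cells that line the liver surface, differed between liver and culture in the same direction as the class II chains. The 12 on the array summed to 36128 to 40709 in WT1-high, 21197 to 29154 in WT1-intermediate and 444 to 545 in WT1-negative arrays, and 12 of 12 were called higher in both comparisons (11 of 12 in WT1-intermediate with median scaling), beside 26.5% and 24.4% of all probes. Of the 12, 5 were detected on no cultured array and so passed the filter through the liver arrays alone. The study lists Msln, Upk3b, Upk1b, Dmkn and Gpm6a among its top genes for these comparisons. Since the list was chosen with earlier results of these arrays known, nothing is read from its counts. Msln, the surface protein mesothelin, stood at 11.38, 11.66 and 11.79, at 10.82, 11.14 and 11.01, and at 4.49, 4.63 and 4.22, where it was detected on 1 array. Upk3b, a uroplakin, was detected on all 9 arrays and higher by 7.13 and 6.33, and Dmkn, undetected in culture, was at least 347-fold and at least 183-fold higher, whereas the epithelial cadherin Cdh1 was higher by 0.88 and 0.79. Their part in the class II difference was not tested either.

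The labelled cell type was checked in the same way. Vim, Dcn, Col1a1, Col1a2, Col3a1, Acta2 and Des, genes of fibroblasts and stellate cells, were detected on all 9 arrays, but Rgs5 and Lhx2 were detected on none and Lrat, the retinol-storing enzyme of stellate cells, on 1. Col3a1 was higher in liver than in culture by 4.55 and 4.36 and the contractile actin Acta2 lower by -1.78 and -2.55, and Pdgfrb was lower in WT1-high than in the other groups (4.99, 4.98 and 5.08). Endothelial markers summed to 1241 to 1644, 2098 to 2426 and 1425 to 1912, with Pecam1 at 5.21 to 6.05 on liver arrays and 6.71 to 6.90 in culture, Stab2 at 5.33 to 6.87 throughout, Clec4g higher in liver by 2.76 and 3.45 and Emcn lower by -2.95 and -2.43.

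The genes whose levels most resembled the classical chains were sought over the 9 arrays. The likeness was the root mean square difference in log2 level, after centring each gene, from the mean profile of H2-Aa, H2-Ab1, H2-Eb1 and Cd74. The nearest 5 genes outside the set were C4a (0.29), a complement component encoded elsewhere in the MHC, Muc16 (0.29), Lrrn4 (0.30), Cldn15 (0.31) and Gpm6a (0.33), of which Muc16, Lrrn4 and Gpm6a were in the mesothelial list. The 4 chains make up the mean profile, so their own distances are small in part by construction and cannot be ranked with the rest. Those were 0.06 for H2-Eb1, 0.23 for Cd74, 0.29 for H2-Ab1 and 0.34 for H2-Aa. The other 4 members lay at 2.60 for Ciita, 2.76 for H2-DMb1, 2.96 for H2-DMb2 and 3.08 for H2-DMa. With 9 arrays in 3 groups, this measure ranks genes mainly by the size of the step between liver and culture. The probes of Muc16, Lrrn4 and Gpm6a, like that of H2-Aa, were detected on no cultured array. The sizes of their steps are therefore uncertain, and nothing is read from the order of the 5. C4a, the nearest, stood at 12.50 ± 0.13, 12.56 ± 0.20 and 6.83 ± 0.21 (SD, n = 3 arrays each), with the probe open to reads of its near-identical neighbour C4b.

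Across the arrays, mean raw signal was 147 to 289 and 17253 to 19774 probes were detected, with no array apart from the others in the share detected (38.1% to 43.7%). WT1-intermediate replicate 30 was the dimmest, at 147, and was the liver array on which Ciita was not detected.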

How the data were processed

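Per the file headers and the study's methods, the authors hybridised labelled RNA to MouseWG-6 v2.0 arrays and exported 1 intensity per probe from BeadStudio, not normalised, with a deposited detection p-value. Intensities of 45281 gene and 936 negative control probes were processed by neqc of limma 3.58.1 in R 4.3.3 (background from negative controls, offset 16, quantile normalisation, log2), following the outline of the study, and no log2 values or comparisons deposited by the authors were used. Of the gene probes, 20573 reached a detection p under 0.05 on 3 or more arrays and entered the tests, a filter that the study does not mention. The detection p-values of WT1-intermediate replicate 30, whose column bears another number, were recomputed as the share of its negative controls at least as bright, a rule under which calls on the 8 other arrays differed from those deposited for 0 probes.

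All 9 arrays were fitted together by a linear model of the 3 groups, with 6 residual and 5.19 prior degrees of freedom. Tests were limma's moderated two-sided tests with Benjamini-Hochberg adjustment over all kept probes, and an adjusted p under 0.05 is a call. Errors are SD or SE as stated. The steps were tested on simulated data. A gene is given by its brightest probe unless stated. Fold changes written "at least" are against the higher of each dim array's lowest detected level and the probe's own level. The number of arrays limits the precision.

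The members and gene lists were chosen with earlier results of these data known. All members were named with every probe. From other lists, genes called between liver groups, the extremes against WT1-negative and a fixed set of regulators and markers were named. Of list entries, Sppl2a and Cxcr2 were matched through synonyms, some are not reported here by name, and Wt1, Pdpn, March1, March8, Cd79a and Clec10a were not analysed here.

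A deposited column named 29 was taken as the WT1-intermediate sample labelled 30, the only one of its group left, and a joined table held equal values for it (largest difference 0). The pairing of liver arrays, which rests on recurring numbers and on the study's 3 animals, was checked by correlating deviations from group means across probes. It gave 0.35 for 1 with 1, 0.34 for 8 with 8 and 0.47 for 29 with 30, against -0.39 to 0.03 for other combinations. Promoters are RefSeq windows on GRCm38.p6. The build behind the array annotation is not given in the sources used here, so no gene coordinates were taken from it. Alternatives in scaling, background, filter, pairing, weights and left-out arrays are reported below.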

Additional observations from a re-analysis of the deposited data

How the results depend on the processing

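Between WT1-high and WT1-intermediate, 0 members were called by limma under all 21 alternatives, and leaving out single arrays gave medians of -0.20 to 0.03. Median scaling turned the median to 0.48, with a shift of all probes by 0.40. Against WT1-negative, leaving out single arrays gave 4 to 6 calls in each comparison, and medians between 3.05 and 3.27 in the WT1-high comparison, or between 3.01 and 3.44 in the other. H2-Aa, H2-Ab1, H2-Eb1 and Cd74 were called wherever they were tested. The filter requiring detection on all arrays left 5 members, with 2 and 3 calls and medians of 0.35 and 0.47, since it removed genes undetected in culture. Under that filter 7970 and 7716 of 12749 probes were called, and nothing is read from the member counts. Without background correction the medians were 2.20 and 2.26, and with an offset of 50 they were 2.66 and 2.72. In WT1-intermediate, median scaling gave 2.98, and fitting the compared groups alone, which dropped Ciita, gave 5.77. Median scaling turned H2-DMb1 to -0.26 there. Ciita lost its call in 3 of 18 alternatives for WT1-high and 8 of 17 for WT1-intermediate, among them those without WT1-intermediate replicate 8 (0.38) and without WT1-high replicate 8 (0.60).

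With a replicate block the median between the liver groups was -0.15 by label number, -0.11 by column name and -0.11 as a random block, and 0 members were called in each. These blocks raised the calls among all probes from 730 to 1847, 1520 and 1796, and other settings gave 324 to 2631. Genes of the other lists were tested between the liver groups without a block only, so their calls take no account of the pairing. Fixed blocks leave no comparison with WT1-negative, whose arrays share no number with the rest. The random block changed 1 member call there, that of H2-DMb1 in WT1-intermediate.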
